A study of Mus musculus with 6 samples.

Results

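The mitochondrial ribosomal proteins were examined across 6 gene expression arrays of mouse microglia, the resident macrophages of the brain. Their genes were taken as all genes whose symbol starts with Mrpl or Mrps followed by a digit, pseudogenes left out, and found by matching the transcript accession behind each probe to RefSeq. This gave 78 of 23462 named genes, 49 with large subunit symbols (Mrpl) and 29 with small subunit symbols (Mrps), measured by 104 of 56601 probes. The rule uses names and no values, though it was set with earlier results of these data known.

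Microglia were enriched on Percoll from young mice, 3 months old by the paper's legend, and sorted as CD45low CD11b+ Cx3cr1+ cells. The labels give 3 mice per genotype whereas the Methods describe several mice pooled per sample, so whether the spread between samples is that of single mice or of pools was not settled. The controls were Bhlhe41 dTomato-Cre/+ mice (B41HET, n = 3) and the knockouts were Bhlhe41 dTomato-Cre/dTomato-Cre mice (B41KO, n = 3). The allele places a dTomato and Cre cassette before the start codon of Bhlhe41, a transcriptional repressor that binds the E-box motif, so both genotypes carried the reporter and Cre, and no wildtype sample entered the comparison. The paper describes the allele as ending translation of Bhlhe41, and where the probes lie relative to the cassette was not examined, so the array values were not used to check the knockout. The brighter of the 2 Bhlhe41 probes gave a log2 fold change of 0.38 (SE 0.200, adjusted p = 0.330, limma).

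Mitochondria keep their own ribosome, which translates only the few proteins encoded by mitochondrial DNA, all of them core subunits of the respiratory chain and of ATP synthase. Its RNAs come from mitochondrial DNA, whereas all of its proteins are encoded in the nucleus, made in the cytosol and imported. Some of these proteins descend from bacterial ribosomal proteins and others have no bacterial counterpart. Nuclear respiratory factor 1 (NRF1), ETS family factors and YY1 are known to bind many promoters of nuclear genes for mitochondrial proteins.

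The 6 arrays shared a slide and a scan, with 70.1% to 75.5% of probes well above background and no saturated spot. Microglia markers were well above background in all 6 samples, and 1 of 10 was called, Fcrls, which was lower in B41KO by 0.76 on the log2 scale (SE 0.065, adjusted p = 0.00581). Other cell types moved with genotype. Of 12 neutrophil and monocyte markers, 8 were called lower in B41KO, with a summed log2 signal of 113.1 to 114.4 in B41HET and 94.8 to 95.4 in B41KO. Of 10 border macrophage markers, 5 were called lower, and 3 of 5 erythroid markers were called higher. The summed log2 signal of the 10 microglia markers was 130.8 to 132.0 in B41HET and 129.7 to 130.8 in B41KO. The part of these cells in the values below was not tested, and in such bulk samples fewer cells of a type and less RNA per cell cannot be told apart.

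As a family, the mitochondrial ribosomal protein genes showed no common direction in B41KO microglia. On the brightest probe of each gene, 2 of 78 were called higher, Mrps15 and Mrpl35, and 3 were called lower, Mrpl48, Mrpl16 and Mrpl21. A call needed an adjusted p of 0.05 or less in limma, with Benjamini-Hochberg adjustment over all probes, and a log2 fold change of at least 0.5 in size. Among all named genes, 1.44% were called higher and 4.01% lower, and the shares of the family were 2.56% and 3.85%. The median log2 fold change was -0.02 over the family and 0.01 over all genes. Within the family 41 genes were fitted lower and 37 higher, the middle 50% lay between -0.22 and 0.16, and the extremes were -0.77 and 0.82.

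Rules that use no fold threshold gave the same picture of small differences in both directions. With the adjusted p alone, 3 members were higher and 4 lower, against 2.13% and 5.43% of all genes. An unadjusted p under 0.05 was found for 26 members (33.3%), against 25.0% of all genes. The 3 B41KO samples lay above all 3 B41HET samples for 15 members (19.2%, against 14.2% of all genes) and below them for 16 (20.5%, against 18.0%). Nearly the whole family was detected, and 77 of its genes stood well above background in every sample. Restricting all genes in the same way gave 17222 genes, 39.0% of them without overlap between the genotypes in either direction, the same share as the 39.0% of these 77. Counted over probes, 2 of 104 were called higher and 5 lower, against 1.72% and 3.34% of all probes.

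On the brightest probe, the spread between samples was small enough to bound most of these differences. The intervals do not cover disagreement between probes of the same gene, which is described below. The median standard error over the 77 genes was 0.105 on the log2 scale, and for 48 of them the whole 95% interval of the fold change lay between -0.5 and 0.5. For the other 29 a difference of that size was not excluded by the interval. The replicates of both genotypes varied alike, with a median SD of 0.108 in B41HET and 0.109 in B41KO. The median log2 signal of the 77 genes was 8.63, 8.60 and 8.64 in the B41HET samples and 8.61, 8.52 and 8.50 in the B41KO samples. B41HET replicate 1 held the highest of the 6 values for 20 genes and B41KO replicate 3 the lowest for 25, the most of any sample in either case.

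**Figure D1:**
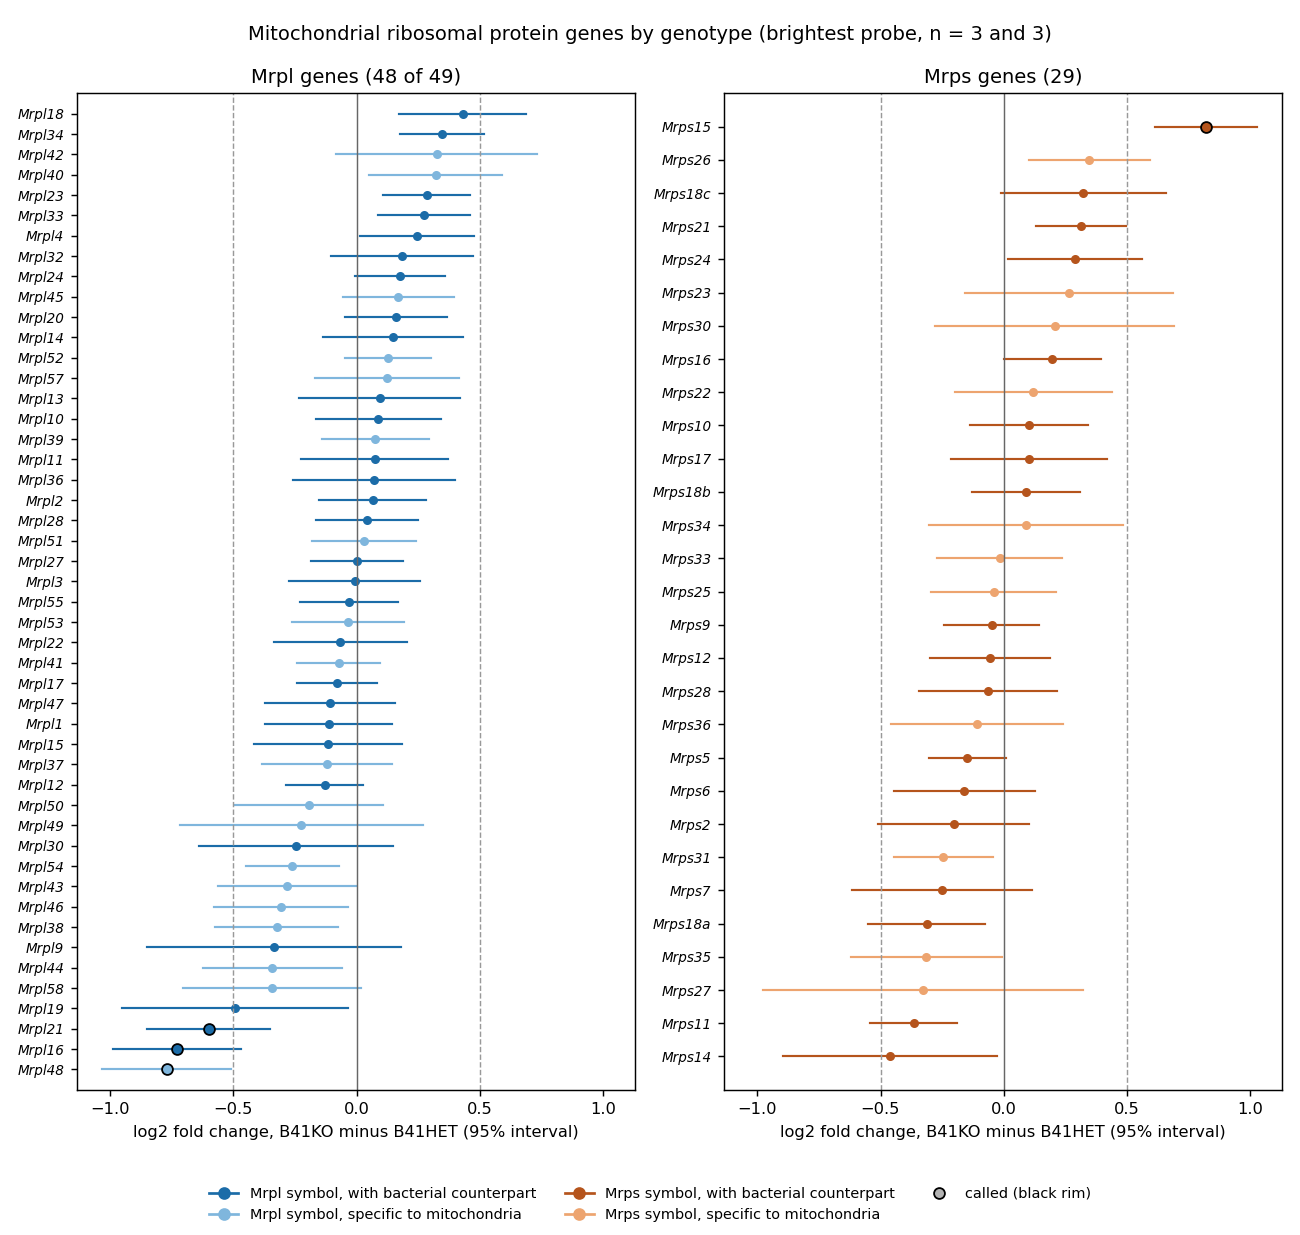
Log2 fold change (B41KO minus B41HET, x axis) of 77 mitochondrial ribosomal protein genes on their brightest probe, with 95% intervals from limma (n = 3 and 3), Mrpl genes at left and Mrps genes at right. Dashed lines mark 0.5 in either direction and black rims mark called genes. Most intervals lie between the dashed lines and most cross 0, Mrps15 stands apart at 0.82, and Mrpl35, whose probe never stood well above background, is not drawn.

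Mrps15 showed the largest difference of the family with all 6 samples, though not in every fit with 1 sample left out. It encodes a small subunit protein whose bacterial counterpart is an early binder of the ribosomal RNA. Its log2 signal was 8.60, 8.50 and 8.64 in B41HET and 9.46, 9.45 and 9.29 in B41KO. All 3 B41KO samples were higher, with a gap of 0.65 between the nearest samples of the genotypes. The log2 fold change was 0.82 (SE 0.084, adjusted p = 0.00886), a 1.77-fold higher signal in B41KO. The call held when any of the 6 samples was left out, with values from 0.78 to 0.87, and it rests on 1 probe. The call was lost with the replicate block (adjusted p = 0.0804, limma). With the presumed row of the slide as a block the fold was 0.88. All B41HET samples and B41KO replicate 1 were placed in the first row and the other B41KO samples in the second. The rows were read from the endings of the scanner file names, which no label states. That fit sets B41KO replicate 1 alone against the 3 B41HET samples, so its p-value is not given.

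Mrpl16, the counterpart of a bacterial protein that lies near the transfer RNA sites of the large subunit, was lower in B41KO. The log2 signal was 7.62, 7.53 and 7.29 in B41HET and 6.70, 6.75 and 6.81 in B41KO. The genotypes did not overlap, and the B41HET samples were spread more widely than the B41KO samples. The log2 fold change was -0.73 (SE 0.105, adjusted p = 0.0205), on the 1 probe of this gene. Leaving out a sample kept the fold between -0.82 and -0.66, but the call remained only without B41HET replicate 3 and was lost without any 1 of the other 5. With normexp background correction the fold was -0.48 and the call was lost to the fold threshold. The replicate block also ended the call.

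Mrpl48 and Mrpl21 were lower on their brightest probe and not on their other probe. Mrpl48, which has no bacterial counterpart and lies in the central protuberance of the large subunit, had a log2 signal of 9.25, 9.14 and 9.14 in B41HET and 8.50, 8.50 and 8.21 in B41KO. All B41KO samples were lower, with a log2 fold change of -0.77 (SE 0.105, adjusted p = 0.0180). On its other probe the samples read 8.16, 8.16 and 8.06 in B41HET and 8.42, 8.39 and 8.22 in B41KO. There the B41KO samples were all higher, with a log2 fold change of 0.22 (SE 0.085, adjusted p = 0.207), and the 95% intervals of the probes did not meet. The call on the brightest probe was lost without any 1 B41HET replicate, without B41KO replicate 2 and with the replicate block. The mean over both probes gave -0.28 and was not called.

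Mrpl21, the counterpart of bacterial L21, read 8.47, 8.50 and 8.40 in B41HET and 7.95, 7.67 and 7.94 in B41KO on its brightest probe. The genotypes were separate, and B41KO replicate 2 was the lowest. The log2 fold change was -0.60 (SE 0.101, adjusted p = 0.0302). The call was lost without any 1 of the 6 samples and, at -0.48, with normexp background correction. It was also lost with the replicate block and, at -0.18, as the mean over both probes. On its other probe the fold change was 0.24 (SE 0.080, adjusted p = 0.146), again with all B41KO samples higher and an interval apart from that of the brightest probe. Mrpl35 was called higher, but its 1 probe stood well above background in no sample, so no level or fold is given.

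**Figure D2:**
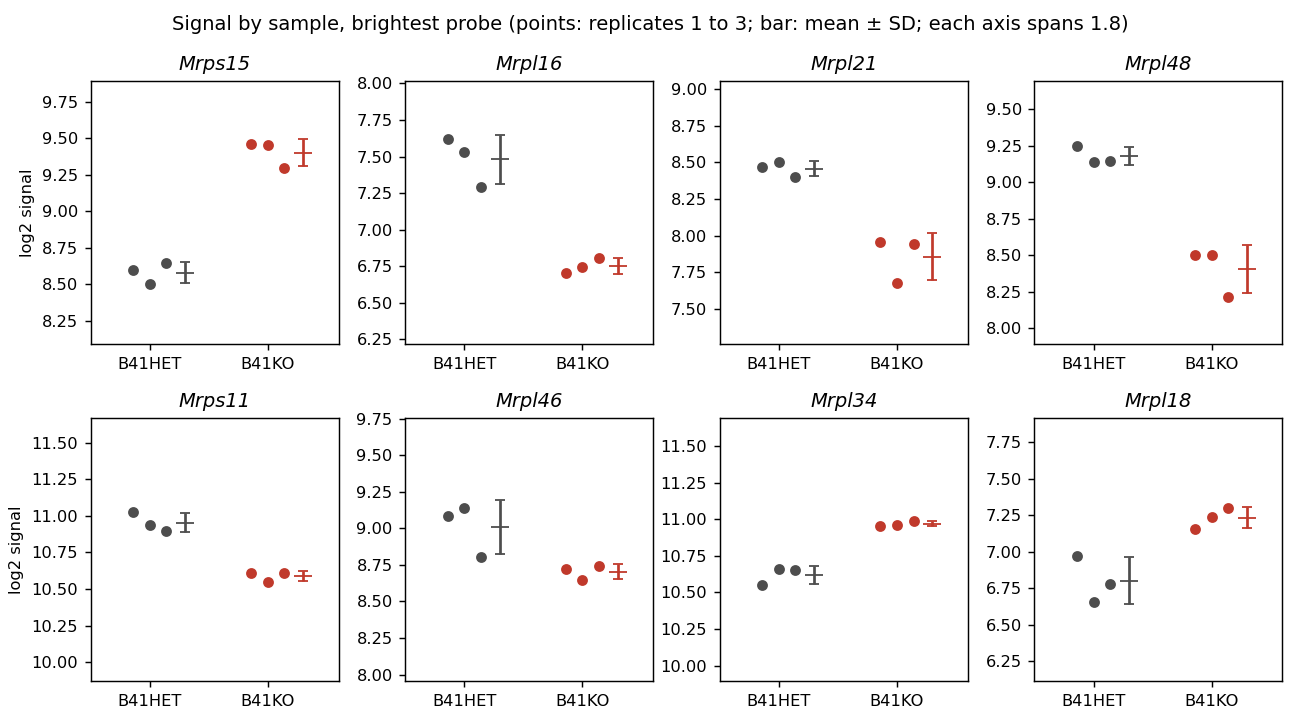
Log2 signal (y axis, 1.8 units high in each panel) of 8 genes by sample on their brightest probe, with B41HET in grey, B41KO in red, and the mean and SD beside the 3 replicates. In all 8 genes the genotypes do not overlap. Mrps15, Mrpl34 and Mrpl18 are higher in B41KO and the others lower, and the panels are drawn at different levels, which are not comparable between probes.

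Below the fold threshold, 2 members reached an adjusted p of 0.05 or less. Mrps11, a small subunit protein with a bacterial counterpart, read 11.03, 10.94 and 10.90 in B41HET and 10.61, 10.55 and 10.61 in B41KO, a log2 fold change of -0.37 (SE 0.071, adjusted p = 0.0428). Mrpl34, of the large subunit, read 10.55, 10.66 and 10.65 against 10.96, 10.96 and 10.99, a fold change of 0.35 (SE 0.069, adjusted p = 0.0441). Both were separated by genotype with little spread within it. Their adjusted p rose above 0.05 without any 1 of the 6 samples (0.0885 to 0.134 for Mrps11 and 0.102 to 0.126 for Mrpl34) and with a shift to the 75th percentile of each array (0.0663 and 0.0784). Among the members not called, the largest increases were those of Mrpl18 (0.43, adjusted p = 0.0729), Mrpl34 and Mrps26 (0.35, adjusted p = 0.107), and the largest decreases those of Mrpl19 (-0.49, adjusted p = 0.189), Mrps14 (-0.46, adjusted p = 0.194) and Mrps11. Mrpl19 and Mrps14 had dim probes and standard errors of 0.185 and 0.175, wider than those of most members, and gave -0.13 and -0.14 with normexp background correction. The other probe of Mrps14 was fitted higher, at 0.41 (adjusted p = 0.260), and the mean over both probes differed by -0.023. Without B41KO replicate 3 the brightest probe of Mrps14 gave -0.29. Over the alternative settings tried, Mrpl18 ranged from 0.24 to 0.52 and Mrps26 from 0.17 to 0.39.

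Grouped by symbol and by whether a bacterial counterpart is known, the 3 genes called lower all had Mrpl symbols. So did 49 of the 78 members, and Mrpl48 and Mrpl21 were fitted higher on their other probe. The 2 called higher were 1 Mrpl and 1 Mrps gene. Among all genes 1.44% were called higher and 4.01% lower. Among the 30 Mrpl genes with a bacterial counterpart, 1 was called higher (Mrpl35) and 2 lower, with a median log2 fold change of 0.05. Of the 19 Mrpl genes specific to mitochondria, 1 was called lower and the median was -0.12. The 18 Mrps genes with a bacterial counterpart had 1 call, Mrps15, and a median of -0.05, and the 11 specific to mitochondria had none and a median of -0.02. Some symbols do not match the place of the protein, as described below for Mrps18a, Mrps30 and Mrps36, and differences between these groups were not tested.

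The factor-binding stalk, which recruits translation factors to the large subunit, was represented by 5 genes and none was called (median -0.03). Its flexible arm, Mrpl12, read 11.65, 11.63 and 11.66 in B41HET and 11.55, 11.52 and 11.49 in B41KO. These values did not overlap, but the difference was small, -0.13 (95% interval -0.29 to 0.03, adjusted p = 0.299). It ranged from -0.19 to -0.06 over the alternative settings tried. The 6 proteins around the exit of the nascent chain, among them Mrpl45, which helps hold the ribosome at the inner membrane, had no call and a median of 0.05. Mrps12, at the decoding centre of the small subunit, differed by -0.05 (95% interval -0.30 to 0.19). Mrpl2, the brightest member, differed by 0.06 (95% interval -0.15 to 0.28), and by 0.01 to 0.12 with 1 sample left out.

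Some members do more than their name says. Mrps18a, Mrps18b and Mrps18c are paralogues of the same bacterial protein, of which Mrps18a belongs to the large subunit in spite of its symbol. Their fold changes were -0.31 (adjusted p = 0.123), 0.09 (adjusted p = 0.609) and 0.32 (adjusted p = 0.232), and none was called. With 1 sample left out Mrps18b differed by 0.04 to 0.14. Mrps18a was the only one of them whose genotypes did not overlap, with 11.11, 11.03 and 10.88 in B41HET and 10.79, 10.68 and 10.60 in B41KO. Mrps30, also a large subunit protein, differed by 0.21 (95% interval -0.28 to 0.69, adjusted p = 0.601), and by 0.04 to 0.35 with 1 sample left out. Mrpl58, a peptidyl-tRNA hydrolase built into the large subunit, differed by -0.34 (adjusted p = 0.240). Mrps36, which is known as a component of the 2-oxoglutarate dehydrogenase complex rather than of the ribosome, differed by -0.11 (adjusted p = 0.715).

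Probes of the same gene often disagreed. Of the 78 genes, 23 had several probes, 20 of them 2 and 3 of them 3. The fold changes had the same sign on all probes in 11 genes and differed in sign in 12. None of the 23 was called on every probe and 4 were called on some. Besides Mrpl48 and Mrpl21 these were Mrpl38, a protein of the central protuberance, and Mrpl9, each called lower on the dimmer probe. Mrpl38 fell by 0.68 on the dimmer probe (SE 0.104, adjusted p = 0.0239), with 9.70, 9.55 and 9.40 in B41HET and 8.84, 8.97 and 8.81 in B41KO. On the brightest probe its fold change was -0.32 (adjusted p = 0.126), also without overlap of the genotypes, so the direction was shared. Mrpl9 gave -0.52 (adjusted p = 0.0462) on the dimmer probe and -0.34 (adjusted p = 0.411) on the brightest, where it was -0.17 without B41HET replicate 2 and -0.54 without B41HET replicate 3. In 5 genes, Mrpl10, Mrpl21, Mrpl44, Mrpl48 and Mrps22, the 95% intervals of the probes did not meet. Whether such probes read different transcripts of the gene was not tested.

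**Figure D3:**
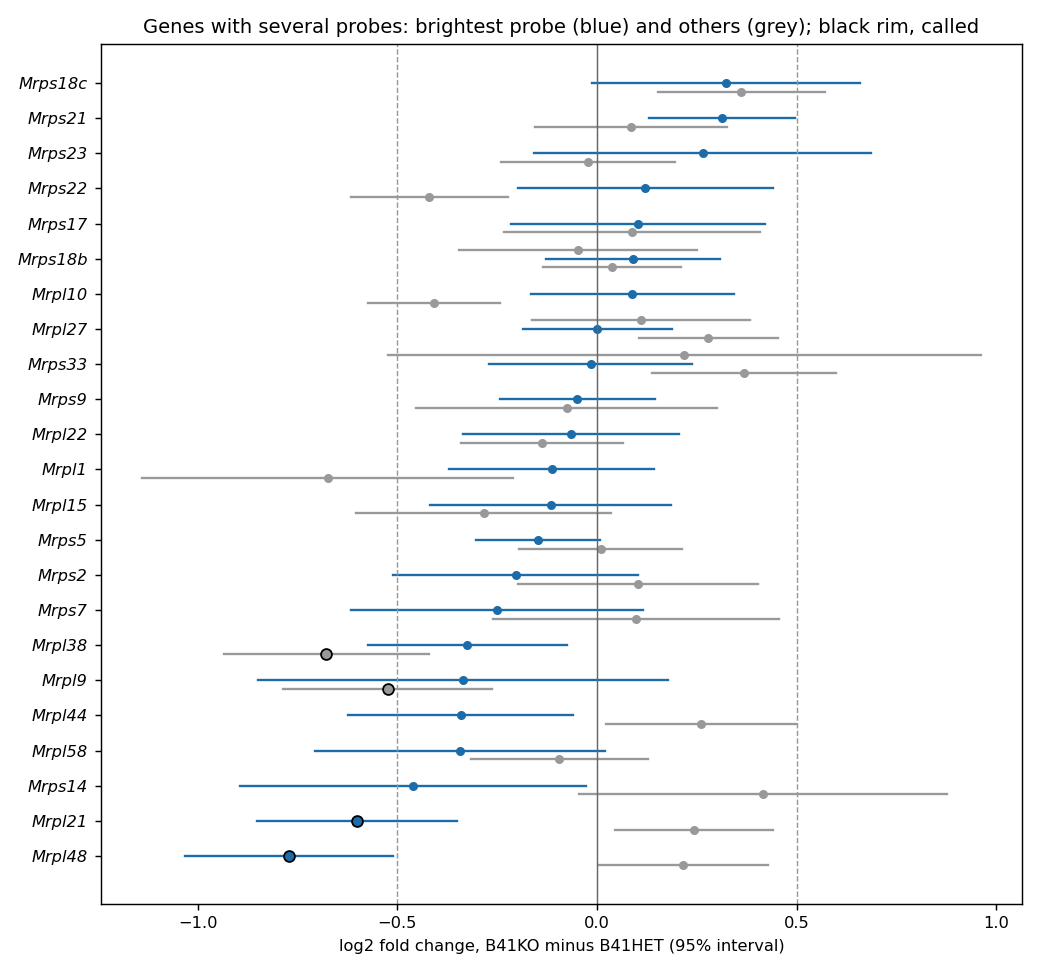
Log2 fold change (B41KO minus B41HET, x axis) with 95% intervals for each probe of the 23 genes with several probes, the brightest probe in blue and the others in grey. Black rims mark called probes and dashed lines 0.5 in either direction. No gene has a black rim on all of its probes, and Mrpl48 and Mrpl21 lie on opposite sides of 0 on their 2 probes.

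Genes of the mitochondrial ribosome that carry other names were not called either (0 of 5 by limma, 3 of 5 at an unadjusted p under 0.05). Dap3, a GTP-binding protein of the small subunit, differed by -0.12 (adjusted p = 0.444), and Ptcd3, also of the small subunit, by -0.35 (adjusted p = 0.195). Chchd1 differed by 0.27 (adjusted p = 0.215) and Gadd45gip1 by -0.10 (adjusted p = 0.506). Aurkaip1, a small subunit protein that also bears the name of an interaction partner of Aurora kinase A, read 9.77, 9.79 and 9.80 in B41HET and 9.97, 9.97 and 10.11 in B41KO. The B41KO samples were all higher, by 0.23 (SE 0.073), which did not pass the test (adjusted p = 0.136).

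Around the ribosome, the mitochondrial aminoacyl-tRNA synthetases, which charge its transfer RNAs, held 2 calls among 17 genes, both lower (4.01% of all genes were called lower). Rars2, for arginine, read 11.25, 11.26 and 11.25 in B41HET and 10.70, 10.64 and 10.76 in B41KO, a log2 fold change of -0.55 (SE 0.068, adjusted p = 0.0135). Sars2, for serine, read 9.44, 9.27 and 9.18 against 8.62, 8.76 and 8.57, a fold change of -0.65 (SE 0.10, adjusted p = 0.0250). Both were lower in every B41KO sample, and of the 17 genes 12 were fitted lower, with a median of -0.19, against 11450 of 23462 genes fitted lower in all. None of 12 translation factors was called (median 0.06). Of these Tsfm, the exchange factor of the elongation factor Tufm, had an adjusted p of 0.0331 and a fold change of -0.45, under the fold threshold. None was called among 21 genes of ribosome assembly (median 0.01, 8 at an unadjusted p under 0.05), 14 of mitochondrial DNA and RNA upkeep (median -0.06, 4 at an unadjusted p under 0.05) and 12 chaperones and proteases (median 0.04, 0 at an unadjusted p under 0.05).

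Among 10 regulators of nuclear genes for mitochondria none was called, though 6 had an unadjusted p under 0.05 (25.0% of all genes did) and the 3 B41KO samples lay below all B41HET samples for 6 (18.0% of all genes). Myc, which drives many genes of ribosomes and mitochondria, read 13.97, 13.96 and 13.85 in B41HET and 13.48, 13.53 and 13.39 in B41KO. Its fold change of -0.46 (SE 0.077, adjusted p = 0.0299) stayed under the fold threshold. Its partner Max gave -0.37 (adjusted p = 0.0498), Yy1 -0.48 (adjusted p = 0.0676) and Nrf1 -0.29 (adjusted p = 0.0795). The B41KO samples lay above all B41HET samples for 2, Gabpb1, the partner subunit of the ETS family factor Gabpa, at 0.22 (adjusted p = 0.257), and Ppargc1a, a coactivator of mitochondrial genes that stood well above background in no sample.

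Ribosomal proteins of the cytosol and nuclear subunits of oxidative phosphorylation, the families most like this one, leaned higher in B41KO. In all, 12012 of 23462 genes were fitted higher, 14.2% had B41KO samples above all B41HET samples and 18.0% had them below. Of all genes 1.44% were called higher and 4.01% lower, and 25.0% had an unadjusted p under 0.05. Of 81 genes with cytosolic ribosomal protein symbols, which include Rps19bp1, the gene of a binding protein of Rps19, 65 were fitted higher, with a median of 0.16, and the 3 B41KO samples lay above all B41HET samples for 47 and below them for 12. Of the 81, 3 were called higher (Rpl34, Rps20 and Rpl37rt) and none lower, with 41 (50.6%) at an unadjusted p under 0.05. Of 84 oxidative phosphorylation genes 63 were fitted higher, with a median of 0.13, the B41KO samples lay above all B41HET samples for 33 and below them for 8, and 4 were called higher (Cox6c, Cox6a2, Ndufa1 and Ndufb4) and 1 lower (Atp5a1). For the mitochondrial ribosomal proteins, 37 of 78 were fitted higher and 15 lay above all B41HET samples. Across the scalings of the arrays tried the medians were 0.15 to 0.20 for the cytosolic family, 0.13 to 0.17 for oxidative phosphorylation and -0.03 to -0.02 for the mitochondrial ribosomal proteins. The median of all genes was 0.01 in the quantile normalized values and 0.10 with a shift to the 75th percentile of each array, where the families' medians were 0.15, 0.17 and -0.02, so the distance of the first 2 families from all genes was smaller there and that of the mitochondrial ribosomal proteins larger. The genes of a family share these 6 samples and are not independent, and the differences between families were not tested. Cytosolic ribosomal proteins have many processed copies in the genome, so their probes may not read 1 gene alone.

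**Figure D4:**
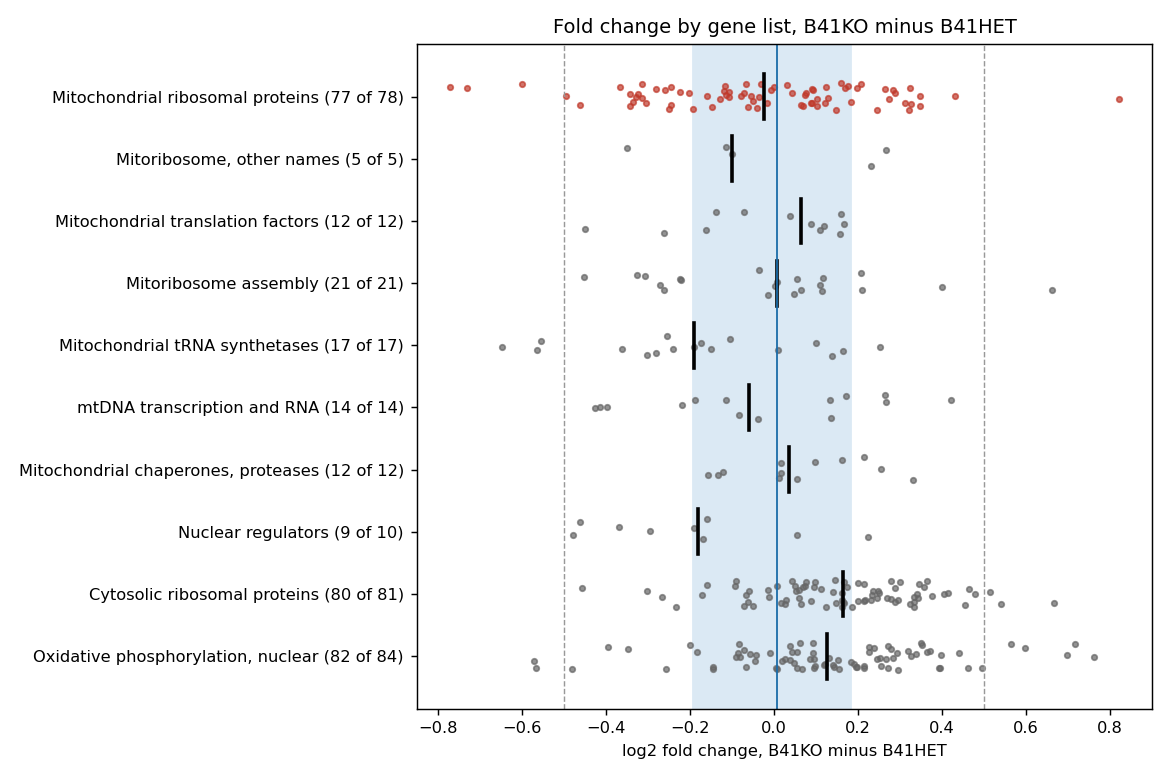
Log2 fold change (B41KO minus B41HET, x axis) of each gene in 10 gene lists, brightest probe, with the median over all tested genes of each list as a black bar. The blue line and band give the median and the middle 50% of all genes, and genes that stood well above background in no sample are not drawn. The mitochondrial ribosomal proteins (red) centre near 0, whereas the cytosolic ribosomal and oxidative phosphorylation lists centre at 0.16 and 0.13.

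Bhlhe41 is studied as a repressor at E-boxes, so the promoters of the family were searched for that motif and for motifs of the mitochondrial regulators. RefSeq promoters on GRCm38.p6, from 250 bases before to 50 after each start, were matched for 69 of the 78 genes. The E-box CACGTG, which reads the same on both strands, was found in 5 of 69 genes (7.25%), against 9.19% of the 18490 genes on the array with a promoter. The ETS motif CCGGAAG was found in 26 (37.7%, against 12.6%), the YY1 motif AAGATGGC in 12 (17.4%, against 3.62%) and the NRF1 motif GCGCATGC in 8 (11.6%, against 3.92%), each on either strand. A match is a description of letters in the window and not a binding site. The site at which the paper reports Bhlhe41 at the Cd22 promoter lies further upstream than this window reaches. A lack of the motif here therefore says nothing about sites outside the window. The 5 members with an E-box are shown with 12 bases on either side, the motif in capitals, because they are the members where the motif and the genotype can be set side by side:
Mrpl2 (chr17:46646078-46646107, plus strand): actgccgcccgtCACGTGacccgagcaacc
Mrpl20 (chr4:155802833-155802862, plus strand): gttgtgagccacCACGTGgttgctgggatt
Mrpl36 (chr13:73330954-73330983, plus strand): cacacgtcatccCACGTGaccttacgccat
Mrpl37 (chr4:107067011-107067040, minus strand): agcaagtttcttCACGTGtggcacttcaga
Mrps18c (chr5:100798584-100798613, plus strand): gcagccccgggtCACGTGacttccggcccg

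None of these 5 genes was called. Their log2 fold changes were 0.06 for Mrpl2, 0.16 for Mrpl20, 0.07 for Mrpl36, -0.12 for Mrpl37 and 0.32 for Mrps18c, with adjusted p-values from 0.232 to 0.806. Of the 4 called members above background, none had the E-box in its windows. Mrps15 and Mrpl16 held none of the 4 motifs, and the 250 bases before their starts are shown on the plus strand, as the promoters of the largest increase and of the called decrease measured by 1 probe alone:
Mrps15 (chr4:126046678-126046927): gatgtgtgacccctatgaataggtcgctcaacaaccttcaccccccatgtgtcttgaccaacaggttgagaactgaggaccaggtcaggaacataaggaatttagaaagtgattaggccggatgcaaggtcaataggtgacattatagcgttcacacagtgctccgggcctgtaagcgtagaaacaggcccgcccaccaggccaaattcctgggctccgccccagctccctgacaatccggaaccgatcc
Mrpl16 (chr19:11770165-11770414): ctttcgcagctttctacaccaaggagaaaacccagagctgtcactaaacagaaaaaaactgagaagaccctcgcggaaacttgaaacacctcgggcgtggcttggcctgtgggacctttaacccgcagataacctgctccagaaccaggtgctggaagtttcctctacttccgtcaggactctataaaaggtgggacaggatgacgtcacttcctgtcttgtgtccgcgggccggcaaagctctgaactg

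Many members start beside another gene that is transcribed away from them, and the arrays measured both sides. Of the 69 genes with a promoter, 26 had such a divergent neighbour within 1000 bases, in 25 pairs, of which 24 were measured above background on both sides. Both genes of a pair were fitted in the same direction in 12 pairs and in opposite directions in 12. The pairs described next were chosen after their values were seen. Mrps11 and Mrpl46 are the only pair made of 2 members, a small and a large subunit gene whose starts lie 42 bases apart on chromosome 7. Mrpl46 read 9.09, 9.14 and 8.80 in B41HET and 8.72, 8.65 and 8.74 in B41KO. The B41KO samples were all lower, by a log2 fold change of -0.31 (SE 0.110, adjusted p = 0.175), beside the -0.37 of Mrps11.

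In some other pairs the values were further apart, while in others they were close, such as Mrps27 and Ptcd2 at -0.33 and -0.31. The start of Mrps12 lies 147 bases from that of Sars2, which was called lower at -0.65, while Mrps12 differed by -0.05 with an interval of -0.30 to 0.19. Mrpl40 differed by 0.32 (SE 0.109, adjusted p = 0.154), whereas its neighbour Hira, a histone chaperone gene 113 bases away, was called lower at -0.81 (SE 0.114, adjusted p = 0.0194). Mrpl21, called lower on its brightest probe, lies 32 bases from Ighmbp2, which differed by -0.16 (SE 0.085, adjusted p = 0.339). The bases between the 2 starts are shown on the plus strand for the pair of members and for the pair in which the synthetase gene alone was called, and neither stretch holds any of the 4 motifs:
Mrpl46 and Mrps11 (chr7:78783090-78783130): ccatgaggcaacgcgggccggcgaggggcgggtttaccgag
Mrps12 and Sars2 (chr7:28741822-28741967): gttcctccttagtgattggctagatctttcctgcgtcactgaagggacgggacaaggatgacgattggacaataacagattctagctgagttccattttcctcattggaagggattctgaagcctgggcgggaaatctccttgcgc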

How the data were processed

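RNA of 6 sorted microglia samples was hybridised in 1 colour to SurePrint G3 Mouse 8x60K arrays. The authors deposited scanner output (Agilent Feature Extraction 11.5.1.1), whose processed intensity is background-subtracted within each array, and a table of log2 values, read here as quantile normalized from its columns' equal medians (5.11), with the scale not stated. Samples were grouped by title.

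From the processed intensity, control and outlier spots were left out, log2 values were quantile normalized, spots were averaged per probe, and B41KO was compared with B41HET by limma 3.58.1 (R 4.3.3) on 56601 probes. The Methods give the normalization and limma but no model terms; genotype was the only term here. The text's thresholds are those by which the Methods define genes shared with a public sequencing set of double knockout microglia. Here they were applied to these arrays alone. The brightest probe stood for a gene, and 33767 probes (59.7%) were named through RefSeq (GRCm38.p6). The fit was tested on simulated data. No probe was filtered for low signal. For 1-colour arrays the number of arrays limits precision, and p-values measure the spread between these samples.

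The members and lists were chosen with earlier results of these data known. Genes named were the called members, the 3 largest increases and decreases not called, members called on another probe only, the brightest and dimmest member, and a fixed list (Mrpl12, Mrpl58, Mrps12, Mrps18a, Mrps18b, Mrps18c, Mrps30, Mrps36, Dap3, Chchd1, Aurkaip1, Ptcd3, Gadd45gip1, Bhlhe41). The rest, outside the rule, were named after their values were seen. Marker lists of 8 B cell (1 lower), 6 endothelial (2 lower), 6 oligodendrocyte (1 lower), 6 astrocyte and neuron (0 called by limma, 0 at an unadjusted p under 0.05) and 13 proliferation genes (1 higher, 1 lower) were also counted. Motifs were searched with Python 3.11.15. Alternatives changed the normalization, background correction, filters, variance model, blocks, samples, fold threshold and choice of probe.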

Additional observations from a re-analysis of the deposited data

How the results depend on the processing

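Mrps15 stayed called in 14 of 16 alternatives, and the median over the family stayed within -0.04 to 0.02 in all of them. The median of all genes was 0.01 in the main fit and 0.10 with the shift to the 75th percentile. The place of the family among all genes thus depended on the scaling. The counts of called members, 2 higher and 3 lower, were less stable. They were 1 (Mrps15) and 1 (Mrpl48) with normexp background correction, and 1 was higher with a filter on dim probes, which removes Mrpl35. Taking the probe with the lowest p gave 5 lower. Leaving out 1 sample at a time gave 1 to 2 higher and 0 to 1 lower, with fewer samples in each fit. Without B41HET replicate 1, B41HET replicate 2 or B41KO replicate 2 none was lower (limma), with 16 members at an unadjusted p under 0.05 in each case. Deviations of samples with the same replicate number were weakly correlated (0.13, -0.01 and 0.17). B41HET replicates 1 and 3 correlated best with the B41KO sample of their number and replicate 2 did not. Whether the numbers pair the samples was therefore not settled. With the replicate block, limma called 0 higher and 0 lower, with 20 members at an unadjusted p under 0.05 and a lowest adjusted p of 0.0804. With the array row as a block, taken from file name endings, genotype is fitted from B41KO replicate 1 against the 3 B41HET samples. The second row holds only B41KO replicates 2 and 3, so p-values of that fit are not given. The cause of the losses with the replicate block was not tested. Of 351 values of single genes, 310 kept their direction and side of the threshold, 34 lost and 3 gained a call, and 4 changed sign: Mrps12 (0.0097 without B41KO replicate 2, from a range of -0.137 to 0.0097 over the left-out samples), Mrps36 (0.087 with the array row and 0.041 without B41KO replicate 3, from a range of -0.204 to 0.041) and Mrpl2 (-0.053 with the array row).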
